A study of Mus musculus with 18 samples.

Results

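The genes described here code for the lysosome's proton pump and membrane proteins, its cathepsin proteases, the Ragulator complex on its surface and the machinery of autophagy. They were taken by gene symbol alone: every gene of the GENCODE mouse annotation whose symbol starts with Atp6v, Lamtor, Atg and a digit, Gabarap or Map1lc3, or is Lamp1, Lamp2 or Cts with 1 more letter, without pseudogenes. The rule gave 71 of the 47069 genes in the deposited tables, and 50 of the 71 passed the filter on low counts. By symbol they fall into 9 V-ATPase V0 genes (8 measured), 14 V1 genes (10 measured) and 5 Ragulator genes (all measured). The 14 V1 symbols include Atp6v1fnb, which lies beside Atp6v1f and is grouped by its symbol alone. Of the autophagy genes, 7 are of initiation and lipid transfer (6 measured) and 7 of conjugation (all measured). A further 4 are Atg4 proteases (2 measured) and 5 are of the Atg8 family (4 measured). The rest are 2 LAMP genes (both measured) and 18 cathepsins (6 measured). The 21 genes under the filter are named at the end.

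The samples were 18 single oocytes of wild-type C57BL/6 mice, each a SMART-seq2 library (a method that copies polyadenylated RNA into full-length cDNA) made from the supernatant of a gently lysed oocyte whose nucleus had been spun down. There were 6 groups of 3 oocytes. MSC-IVM-MII-12m and MSC-IVM-MII-6wk oocytes were matured in vitro to metaphase II and kept overnight with MSC, which the labels leave abbreviated, and came from mice aged 12 months and 6 weeks. IVM-MII-12m and IVM-MII-6wk oocytes were matured in vitro to metaphase II without MSC, at the same ages. GV-12m and GV-6wk oocytes were germinal vesicle oocytes, which are arrested before meiosis resumes, without MSC. The labels name no mouse, litter or culture for any oocyte, so each group counts as 1 sample, no test between groups was made, and the spread over 3 oocytes says nothing about mice.

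The V-ATPase is a rotary proton pump: its V1 sector splits ATP in the cytosol and its V0 sector carries protons through the membrane into the lysosome, whose cathepsins work in acid. Ragulator, the complex of the Lamtor proteins, sits on the lysosome's surface, binds the V-ATPase and holds the Rag GTPases that bring mTORC1 there when amino acids are present. In autophagy, the ULK1 complex and a class III PI3-kinase complex start a membrane, and a pair of ubiquitin-like conjugation steps couple Atg12 to Atg5 and an Atg8 protein to phosphatidylethanolamine on that membrane, which closes and fuses with lysosomes. A growing oocyte stores mRNA, transcription stops before meiosis resumes, and much of the stored mRNA is then removed or translated during maturation, so a change in transcript level between GV and metaphase II oocytes is usually a change in stored mRNA. Oocytes carry lysosomes and take up autophagy after fertilisation, and mouse embryos from Atg5-null oocytes that also receive no paternal Atg5 stop before the blastocyst.

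Total counts ranged from 1914072 to 9193559 per oocyte. Counts of the mitochondrial genome made up 3.03 to 14.9% of a metaphase II library and 0.917 to 3.70% of a GV library. Each library held counts of at least 9 of 12 oocyte marker genes. Titles of the oocytes start with 1 of 5 prefixes (O01, O04, O05, Y01 and Y03), whose meaning the labels do not give. The 2 metaphase II oocytes with the prefix Y01 (MSC-IVM-MII-6wk oocyte 1 and IVM-MII-6wk oocyte 1) stood apart, with summed oocyte markers of 18832 and 23508 CPM (counts scaled to library size) against 4175 to 9402 CPM in the other 10 metaphase II oocytes. GV-12m oocyte 3 carried 1906 CPM of 19 cumulus and granulosa markers, of which 4 were at 0, against 75.7 to 263 CPM with 5 to 8 at 0 in the other 5 GV oocytes and 0 to 80.3 CPM with 12 to 19 at 0 in metaphase II oocytes. Its oocyte markers summed to 6086 CPM, within the range of those 10 metaphase II oocytes, while the 5 remaining GV oocytes had 23579 to 45142 CPM of them. The mesenchymal stromal markers (18 genes) summed to 1.71 to 48.9 CPM, and the highest value was in a GV-12m oocyte.

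Promoter sequence of these genes was set beside the transcript data because the transcription factor TFEB and its relatives are known to bind an E-box, CACGTG, in promoters of lysosomal and autophagy genes. RefSeq promoter windows of 300 bases (250 before and 50 after the gene's start, build GRCm38.p6) were found for 57 of the 71 genes. The motif CACGTG, which reads the same on both strands, was in the windows of 15 of the 57 (26.3%), against 8.91% of 17492 protein-coding genes and 8.09% of all 27025 genes with a window. Its 8-base extension CACGTGAC, searched on both strands, was in 8 of the 57 (14.0%), against 3.19% of protein-coding genes. The median GC content of the windows was 57.3% for the 57 genes and 56.3% for protein-coding genes. Below are the 250 bases before the start of 5 genes that hold the motif and that the results turn on: Lamtor1 at chr7:101905587-101905836 and Lamtor4 at chr5:138255232-138255481, which fell on maturation, Atg3 at chr16:45158579-45158828 and Atg5 at chr10:44268089-44268338, which rose, and Lamp1 at chr8:13158911-13159160, with the most copies. All 5 are on the plus strand, written 5′ to 3′, with CACGTG in capitals.
Lamtor1: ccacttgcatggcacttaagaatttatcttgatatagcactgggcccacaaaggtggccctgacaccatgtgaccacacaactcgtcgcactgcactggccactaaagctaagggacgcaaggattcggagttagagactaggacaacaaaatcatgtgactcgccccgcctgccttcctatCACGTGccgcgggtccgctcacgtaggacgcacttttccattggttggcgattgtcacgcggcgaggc
Lamtor4: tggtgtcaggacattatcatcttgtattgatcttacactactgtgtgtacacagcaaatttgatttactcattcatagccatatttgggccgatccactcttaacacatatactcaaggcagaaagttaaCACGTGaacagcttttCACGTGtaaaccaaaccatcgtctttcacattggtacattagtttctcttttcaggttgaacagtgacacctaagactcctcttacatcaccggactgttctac
Atg3: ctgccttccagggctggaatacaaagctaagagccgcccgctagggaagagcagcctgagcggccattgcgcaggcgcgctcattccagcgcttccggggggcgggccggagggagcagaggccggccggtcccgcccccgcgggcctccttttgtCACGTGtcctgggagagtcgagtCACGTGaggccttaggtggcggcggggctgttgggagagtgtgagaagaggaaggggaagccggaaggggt
Atg5: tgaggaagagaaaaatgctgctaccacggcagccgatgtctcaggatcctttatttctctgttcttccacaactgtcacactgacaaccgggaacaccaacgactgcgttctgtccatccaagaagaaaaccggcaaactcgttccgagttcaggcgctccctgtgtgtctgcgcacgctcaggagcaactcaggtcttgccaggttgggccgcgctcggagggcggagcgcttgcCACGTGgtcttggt
Lamp1: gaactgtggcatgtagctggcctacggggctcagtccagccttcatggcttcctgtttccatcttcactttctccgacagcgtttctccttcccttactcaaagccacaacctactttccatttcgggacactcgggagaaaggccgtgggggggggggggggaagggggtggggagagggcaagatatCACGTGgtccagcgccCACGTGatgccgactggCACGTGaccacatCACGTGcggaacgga
Lamtor1 and Atg5 hold 1 copy, Lamtor4 and Atg3 hold 2 and Lamp1 holds 4. Among genes with a window, the motif was in 9 of the 22 that fell in IVM-MII oocytes at either age. It was in 3 of the 5 that rose at either age and 2 of the 12 that did neither (Atp6v0b and Atp6v1a). Of the 18 under the count filter, 1 held it (Ctsf). Of the 6 that fell at both ages, 3 held it (Atp6v0e, Lamtor1 and Lamtor4), and of the 3 that rose at both, 2 did (Atg3 and Atg5). A link between the motif and these changes was not tested. A motif match describes the letters of the window and is not a bound site.

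Transcripts of these genes made up a smaller share of metaphase II than of GV libraries at both ages. Summed over the 71 genes, TPM (a length-corrected share of the library) were 2648 ± 494 in MSC-IVM-MII-12m, 2907 ± 286 in IVM-MII-12m and 6213 ± 645 in GV-12m oocytes (SD over 3 oocytes). At 6 weeks they were 3240 ± 179.6 in MSC-IVM-MII-6wk, 3287 ± 575 in IVM-MII-6wk and 6543 ± 716 in GV-6wk oocytes. The sums do not overlap between metaphase II and GV oocytes at either age. Levels are shares of each library, so fewer molecules and a smaller share of the library's RNA cannot be told apart, nor can loss of an mRNA and loss of the poly(A) tail by which the method captures it.

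Conjugation was the only role whose mean sum was higher in metaphase II oocytes. Its 7 genes summed to 584 ± 166 TPM in MSC-IVM-MII-12m, 523 ± 154 TPM in IVM-MII-12m and 246 ± 70.1 TPM in GV-12m oocytes. At 6 weeks the same sum was 575 ± 92.2 TPM in MSC-IVM-MII-6wk, 671 ± 116 TPM in IVM-MII-6wk and 247 ± 88.5 TPM in GV-6wk oocytes. The sums did not overlap between the stages at either age, and Atg5 alone averaged 457 TPM in metaphase II and 160.1 TPM in GV oocytes. The higher sum was not shared by most of the 7 genes, whose median difference on the log2(CPM + 1) scale was -0.30 between IVM-MII-12m and GV-12m oocytes and -0.76 between IVM-MII-6wk and GV-6wk oocytes, with 3 of the 7 above 0 at each age. That median was above 0 without IVM-MII-6wk oocyte 2 (0.17) or oocyte 3 (0.56), and at 12 months within title prefixes (0.09). The V0 sum was lower in metaphase II oocytes, with 447 ± 78.4 TPM in MSC-IVM-MII-12m, 443 ± 86.6 TPM in IVM-MII-12m and 1421 ± 225 TPM in GV-12m oocytes. The Atg8 family summed to 115.9 ± 3.87 TPM in MSC-IVM-MII-12m, 136 ± 19.3 TPM in IVM-MII-12m and 445 ± 22.7 TPM in GV-12m oocytes.

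Single genes were compared on the scale of log2(CPM + 1), as the mean over the 3 oocytes of one group minus the mean over the other's. A gene is said to have risen or fallen where that difference was at least 1 (about 2-fold) and no oocyte of one group overlapped the other group's. Between IVM-MII-12m and GV-12m oocytes, 22 of the 50 measured genes fell and 6 rose, while 25.5% of all 12037 measured genes fell and 10.0% rose. Between IVM-MII-6wk and GV-6wk oocytes, 14 fell and 3 rose, against 28.3% and 8.34% of all genes. The counts by role given below have these same shares of all genes as their background. The median difference of the 50 was -1.17 at 12 months, beside -0.52 for all genes, and -0.89 at 6 weeks, beside -0.52. At 6 weeks the counts are near what the whole transcriptome did, and at 12 months the share that fell was larger than the background. Without the Y01 metaphase II oocyte, 19 fell and 4 rose at 6 weeks, among them all 17 already counted, while 35.3% of all genes fell and 10.9% rose. With differences taken within title prefixes, 21 fell and 6 rose at 12 months, beside 25.0% and 9.25% of all genes, and 14 fell and 2 rose at 6 weeks, beside 28.2% and 8.27%.

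In IVM-MII against GV oocytes, 8 of the 50 fell at both ages, which is 8 of the 22 that fell at 12 months and 8 of the 14 at 6 weeks, beside 18.2% of all genes that fell at both. They were Lamtor1, Lamtor4, Lamtor5, Atp6v0c, Atp6v0e, Atp6v1g1, Atg4b and Map1lc3a. Atg3, Atg5 and Lamtor2 rose at both ages, beside 4.87% of all genes. Over all groups, each of the 12 metaphase II oocytes lay below each of the 6 GV oocytes for the same 8 genes and for Atp6v1d, 9 of 50 beside 13.4% of all genes. Atg5 alone lay above in all 12, beside 2.95% of all genes.

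**Figure D1:**
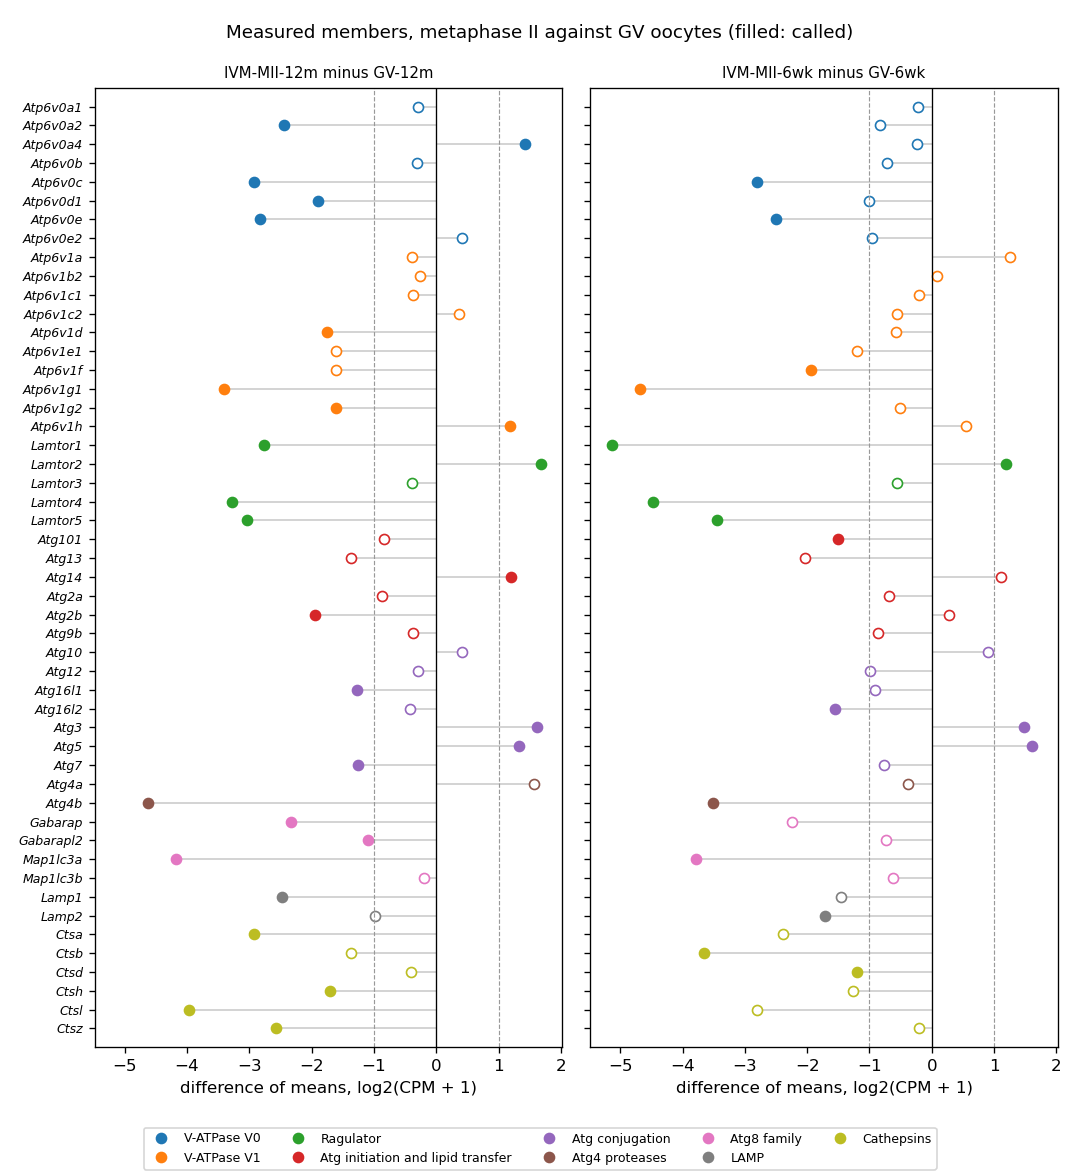
Differences of the 50 measured genes between IVM-MII and GV oocytes, on the log2(CPM + 1) scale, at 12 months (left) and 6 weeks (right), with 1 row per gene and a colour per role. Filled points differ by at least 1 with no overlap between oocytes, and dashed lines mark -1 and 1. Lamtor1 reaches -5.14 at 6 weeks and Atg4b -4.62 at 12 months, and few points lie right of the dashed line at 1.

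The Ragulator genes split. Lamtor1, Lamtor4 and Lamtor5 fell by far, Lamtor2 rose and Lamtor3 did neither on maturation. Lamtor1 (ENSMUSG00000030842, chr7:101905904-101926675, plus strand, GRCm38) codes for the lipid-anchored subunit that wraps around the others. It had 24.0, 5.82 and 34.2 CPM in MSC-IVM-MII-12m oocytes, 45.6, 41.4 and 40.0 CPM in IVM-MII-12m oocytes and 368, 470.5 and 144 CPM in GV-12m oocytes. At 6 weeks Lamtor1 had 60.7, 15.7 and 6.20 CPM in MSC-IVM-MII-6wk oocytes, 3.15, 5.27 and 23.1 CPM in IVM-MII-6wk oocytes and 348, 227 and 343 CPM in GV-6wk oocytes. The metaphase II oocytes of both ages stayed below every GV oocyte, and the mean CPM was 7.74-fold lower in IVM-MII-12m than in GV-12m oocytes and 29.2-fold lower in IVM-MII-6wk than in GV-6wk oocytes (differences of -2.76 and -5.14). Exons of Lrrc51 on the other strand cover 18.7% of the exon bases of Lamtor1, strand use in counting is not stated, and Lrrc51 itself averaged 2.94 TPM in metaphase II and 29.3 TPM in GV oocytes.

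Lamtor4 and Lamtor5 form a roadblock-fold dimer within the complex. Lamtor4 (ENSMUSG00000050552, chr5:138255482-138259398, plus strand) had 0, 1.11 and 3.36 CPM in MSC-IVM-MII-12m oocytes, 6.52, 10.8 and 6.56 CPM in IVM-MII-12m oocytes and 174, 78.0 and 42.6 CPM in GV-12m oocytes. Its 6-week values were 4.43, 4.67 and 9.30 CPM in MSC-IVM-MII-6wk oocytes, 0, 4.03 and 7.97 CPM in IVM-MII-6wk oocytes and 80.4, 51.2 and 115 CPM in GV-6wk oocytes. Summed over 3 oocytes, Lamtor4 had 25 (16.2 to 36.9) counts in MSC-IVM-MII-12m, 139 (117 to 164) in IVM-MII-12m and 1686 (1606 to 1768) in GV-12m oocytes, with exact Poisson 95% intervals that cover counting error only. No metaphase II oocyte came near the lowest GV oocyte. The fold was 12.3 at 12 months and 20.5 at 6 weeks between IVM-MII and GV oocytes (differences of -3.27 and -4.47).

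Lamtor5 (ENSMUSG00000087260, chr3:107278858-107284082, plus strand) was the most abundant gene of the group in GV oocytes, where it averaged 967 TPM. It had 34.3, 24.4 and 38.9 CPM in MSC-IVM-MII-12m oocytes, 52.5, 49.8 and 95.3 CPM in IVM-MII-12m oocytes and 999, 579.8 and 252 CPM in GV-12m oocytes. At 6 weeks Lamtor5 had 68.1, 66.0 and 43.4 CPM in MSC-IVM-MII-6wk oocytes, 11.5, 112 and 55.8 CPM in IVM-MII-6wk oocytes and 539.7, 234 and 819 CPM in GV-6wk oocytes. All metaphase II oocytes lay below the lowest GV oocyte, and IVM-MII means were 9.26-fold (12 months) and 8.87-fold (6 weeks) lower than GV means. Among the GV-12m oocytes the lowest was oocyte 3, the one rich in granulosa markers.

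Lamtor2 and Lamtor3 form the complex's other dimer. Lamtor2 (ENSMUSG00000028062, chr3:88549819-88553074, minus strand) had 314, 111 and 170.4 CPM in MSC-IVM-MII-12m oocytes, 337, 261 and 301.1 CPM in IVM-MII-12m oocytes and 169, 86.3 and 53.3 CPM in GV-12m oocytes. At 6 weeks it had 117, 243 and 282 CPM in MSC-IVM-MII-6wk oocytes, 113, 254 and 204 CPM in IVM-MII-6wk oocytes and 102.7, 49.0 and 96.2 CPM in GV-6wk oocytes. Lamtor2 rose in IVM-MII oocytes at both ages (differences of 1.68 and 1.19), but at 6 weeks the lowest IVM-MII-6wk oocyte, at 113 CPM, lay just above the highest GV-6wk oocyte, at 102.7 CPM. With DESeq2's size factors the Lamtor2 oocytes overlapped at 6 weeks, and the 6-week difference was 0.94 without IVM-MII-6wk oocyte 2, 0.85 without GV-6wk oocyte 2 and 0.95 within title prefixes. Lamtor2 was the most abundant gene of the group in metaphase II oocytes, with a mean of 526 TPM. Lamtor3 showed the smallest Ragulator difference, with -0.39 at 12 months and -0.56 at 6 weeks between IVM-MII and GV oocytes, and the oocytes overlapped.

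**Figure D2:**
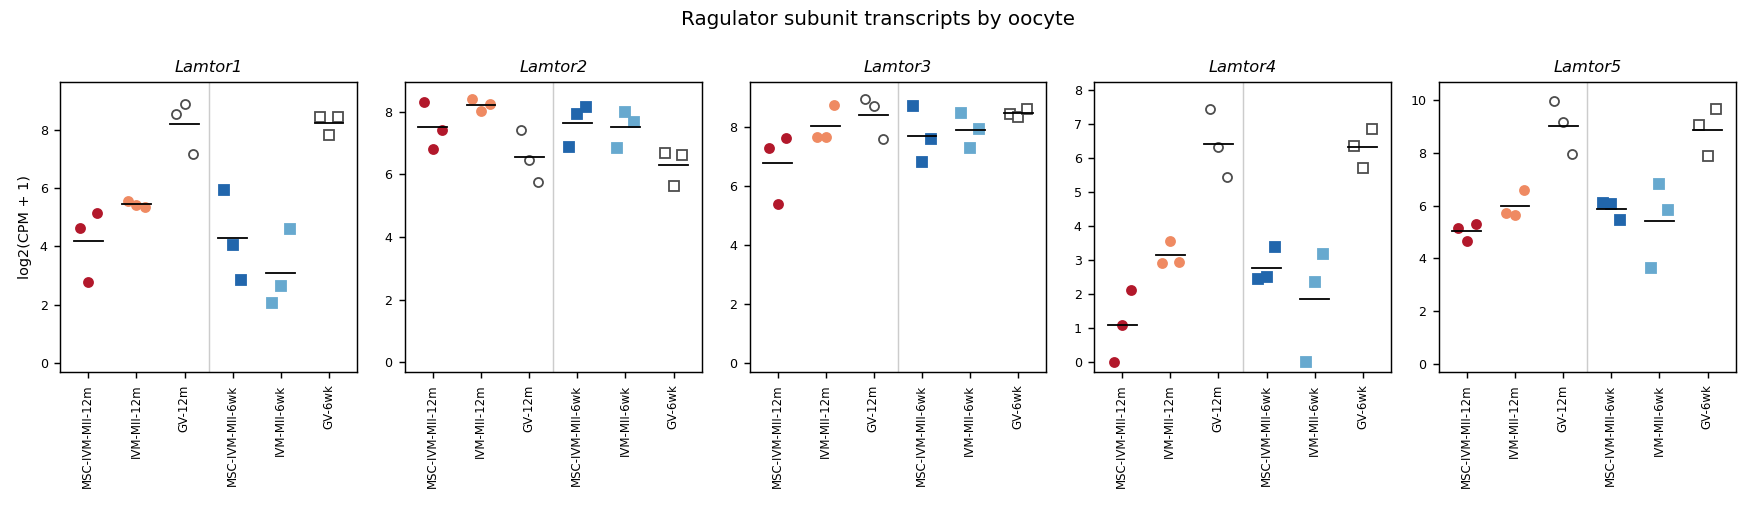
Levels of the 5 Ragulator genes in every oocyte, as log2(CPM + 1), with MSC-IVM-MII, IVM-MII and GV oocytes from left to right at 12 months (circles) and then at 6 weeks (squares), and a black bar at each mean. Lamtor1, Lamtor4 and Lamtor5 are lower in all 12 metaphase II oocytes than in the 6 GV oocytes, Lamtor2 is mostly higher, and Lamtor3 overlaps.

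Of the 8 measured V0 genes, 4 fell and 1 rose in IVM-MII-12m against GV-12m oocytes, and 2 fell in IVM-MII-6wk against GV-6wk oocytes. Atp6v0c (ENSMUSG00000024121, chr17:24163866-24169702, minus strand) codes for the proteolipid that makes up most of the rotating ring. It had 63.2, 45.3 and 131 CPM in MSC-IVM-MII-12m oocytes, 51.7, 85.9 and 48.5 CPM in IVM-MII-12m oocytes and 747, 511 and 258 CPM in GV-12m oocytes. At 6 weeks Atp6v0c had 42.8, 100.4 and 121 CPM in MSC-IVM-MII-6wk oocytes, 8.32, 242 and 167 CPM in IVM-MII-6wk oocytes and 633, 414 and 490.4 CPM in GV-6wk oocytes. The groups did not overlap at either age, and the IVM-MII mean was 8.14-fold lower than the GV mean at 12 months and 3.69-fold lower at 6 weeks. A processed copy, Atp6v0c-ps2, averaged 2.46 TPM in metaphase II and 7.36 TPM in GV oocytes, and the counting could split reads between it and Atp6v0c.

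Atp6v0e, a small membrane subunit, was the V0 gene with the highest mean in GV oocytes (696 TPM). Atp6v0e (ENSMUSG00000015575, chr17:26663231-26699647, plus strand) had 16.02, 13.7 and 52.7 CPM in MSC-IVM-MII-12m oocytes, 73.1, 47.6 and 43.4 CPM in IVM-MII-12m oocytes and 824, 418 and 167 CPM in GV-12m oocytes. At 6 weeks it had 77.1, 104 and 92.3 CPM in MSC-IVM-MII-6wk oocytes, 46.5, 86.2 and 82.3 CPM in IVM-MII-6wk oocytes and 404.3, 217 and 701 CPM in GV-6wk oocytes. It fell 8.59-fold and 6.15-fold in IVM-MII oocytes at 12 months and 6 weeks. Its paralog Atp6v0e2 did not pass at either age. At 12 months its difference was 0.41 with overlapping oocytes. At 6 weeks it was -0.95, just under the size limit, with every IVM-MII-6wk oocyte below every GV-6wk oocyte.

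Atp6v0b, the second proteolipid of the ring, was the most abundant V0 gene in metaphase II oocytes. Its metaphase II oocytes ranged from 41.7 to 333 TPM with a median of 215 TPM, and its GV oocytes from 159.7 to 299 TPM with a median of 239 TPM. Atp6v0b did not pass in either age (differences of -0.32 and -0.72). The large a subunit carries the proton path and comes in isoforms that steer the pump to different membranes. Atp6v0a2 had 0.724, 0.200 and 2.96 CPM in IVM-MII-12m oocytes and 3.33, 12.4 and 21.9 CPM in GV-12m oocytes, a fall of 9.68-fold, though on the deposited TPM scale its difference was only -0.88. Atp6v0a4 had 28.0, 12.0 and 7.20 CPM in IVM-MII-12m oocytes and 3.78, 6.65 and 3.32 CPM in GV-12m oocytes, a rise of 3.43-fold whose difference was 0.93 without IVM-MII-12m oocyte 1, and at 6 weeks the difference was -0.24 with overlap. Atp6v0a1 differed least (-0.29 and -0.22), and its GV oocytes reached no more than 3.78 CPM. Atp6v0d1, which joins the ring to the central stalk, had 11.2, 3.40 and 4.87 CPM in IVM-MII-12m oocytes and 13.6, 26.0 and 40.8 CPM in GV-12m oocytes, a fall of 4.12-fold, and the groups overlapped on the TPM scale.

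Of the 10 measured V1 genes, 3 fell and 1 rose in IVM-MII-12m against GV-12m oocytes, and 2 fell in IVM-MII-6wk against GV-6wk oocytes. Atp6v1g1 (ENSMUSG00000039105, chr4:63544772-63550750, plus strand), a subunit of the peripheral stalks, had the largest V1 fall. It had 36.9, 16.2 and 181 CPM in MSC-IVM-MII-12m oocytes, 104, 12.8 and 93.2 CPM in IVM-MII-12m oocytes and 922, 597 and 289.8 CPM in GV-12m oocytes. At 6 weeks it had 39.2, 41.7 and 64.8 CPM in MSC-IVM-MII-6wk oocytes, 1.57, 70.7 and 42.1 CPM in IVM-MII-6wk oocytes and 577, 291 and 806 CPM in GV-6wk oocytes. The oocytes of the 2 stages did not overlap, with falls of 8.60-fold and 14.6-fold in IVM-MII oocytes.

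Atp6v1d, of the central stalk, had 60.1, 123 and 66.7 CPM in MSC-IVM-MII-12m oocytes, 53.1, 103.1 and 52.5 CPM in IVM-MII-12m oocytes and 288, 250.4 and 159 CPM in GV-12m oocytes. At 6 weeks Atp6v1d had 51.0, 97.7 and 73.0 CPM in MSC-IVM-MII-6wk oocytes, 99.8, 156 and 124 CPM in IVM-MII-6wk oocytes and 204, 201 and 159 CPM in GV-6wk oocytes. Every metaphase II oocyte was below every GV oocyte, but the 6-week difference in IVM-MII oocytes was -0.58 and did not reach the size limit, beside -1.75 at 12 months. Atp6v1f, also of the central stalk, had 18.7, 110.0 and 61.8 CPM in IVM-MII-6wk oocytes and 219.8, 128 and 272 CPM in GV-6wk oocytes and fell 3.25-fold, and its oocytes overlapped at 12 months (-1.61). The brain-type isoform Atp6v1g2 was at 0 in all 3 IVM-MII-12m oocytes and at 2.89, 1.76 and 1.66 CPM in GV-12m oocytes, at least 3.95-fold lower against a floor of 3 counts per library.

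Atp6v1h, the regulatory subunit that couples the sectors, went up. It had 205, 187 and 270.3 CPM in MSC-IVM-MII-12m oocytes, 267, 369 and 253 CPM in IVM-MII-12m oocytes and 204, 140.2 and 72.7 CPM in GV-12m oocytes. The IVM-MII-12m mean was 2.13-fold the GV-12m mean, with a difference of 1.19 that became 0.79 without GV-12m oocyte 3 and 0.97 with DESeq2's size factors. At 6 weeks the difference was 0.55 and the oocytes overlapped. Atp6v1h had the highest V1 mean in metaphase II oocytes, 160.4 TPM. Smaller values were those of subunits that did not pass: Atp6v1b2, of the catalytic head, differed by -0.26 at 12 months and 0.08 at 6 weeks, the smallest V1 values, and Atp6v1c1, an isoform of the C subunit, by -0.37 and -0.20.

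**Figure D3:**
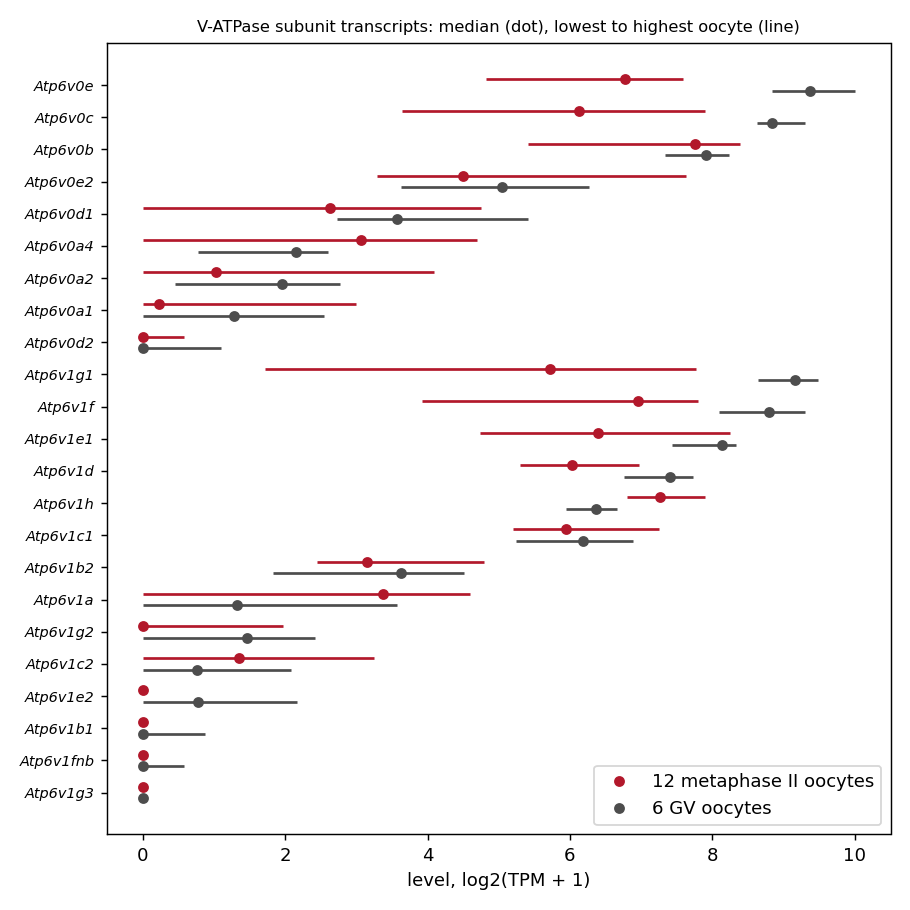
Levels of the genes with V-ATPase symbols as log2(TPM + 1), Atp6v1fnb included by its symbol alone. Each gene has the median and the range over the 12 metaphase II oocytes (red, upper) and the 6 GV oocytes (grey, lower). Atp6v0e, Atp6v0c and Atp6v1g1 lie far apart between the stages, while Atp6v0b and Atp6v1c1 overlap and the median of Atp6v1h is higher in metaphase II oocytes.

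Autophagy genes of initiation and lipid transfer gave 1 fall and 1 rise in IVM-MII-12m against GV-12m oocytes, and 1 fall in IVM-MII-6wk against GV-6wk oocytes, out of 6 measured. Atg14 (ENSMUSG00000037526, chr14:47540893-47570649, minus strand) codes for the subunit that directs the class III PI3-kinase to autophagosome formation. It had 75.2, 35.0 and 30.0 CPM in MSC-IVM-MII-12m oocytes, 39.5, 33.4 and 19.3 CPM in IVM-MII-12m oocytes and 11.6, 12.8 and 12.5 CPM in GV-12m oocytes. At 6 weeks Atg14 had 30.6, 35.0 and 26.5 CPM in MSC-IVM-MII-6wk oocytes, 27.4, 41.8 and 15.7 CPM in IVM-MII-6wk oocytes and 8.04, 19.9 and 9.55 CPM in GV-6wk oocytes. It rose 2.497-fold at 12 months, a difference of 1.20 (0.98 with DESeq2's size factors and 0.99 without IVM-MII-12m oocyte 1), and at 6 weeks the difference of 1.12 came with overlapping oocytes.

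Atg101, a subunit of the ULK1 complex, was the most abundant of these genes in both stages, with means of 75.2 TPM in metaphase II and 156 TPM in GV oocytes. Atg101 (ENSMUSG00000037204, chr15:101284272-101290945, plus strand) had 54.7, 24.5 and 72.3 CPM in MSC-IVM-MII-12m oocytes, 109, 81.3 and 94.2 CPM in IVM-MII-12m oocytes and 213, 236 and 96.7 CPM in GV-12m oocytes. At 6 weeks it had 69.5, 122 and 113 CPM in MSC-IVM-MII-6wk oocytes, 45.2, 66.6 and 58.4 CPM in IVM-MII-6wk oocytes and 159, 148 and 179 CPM in GV-6wk oocytes. It fell 2.86-fold in IVM-MII-6wk oocytes, and at 12 months its difference of -0.84 came with overlap at GV-12m oocyte 3. Atg13, its partner in the complex, had differences of -1.38 and -2.03 with overlap at levels no higher than 19.7 CPM in GV oocytes. Atg2b, a lipid transfer protein, had 0.724, 0 and 0 CPM in IVM-MII-12m oocytes and 1.78, 3.13 and 7.55 CPM in GV-12m oocytes, with a difference of -1.94 that was -0.47 on the TPM scale, and Atg9b differed by -0.38 at 12 months, the smallest value among these genes.

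Conjugation split between genes that rose and genes that fell. Atg5 (ENSMUSG00000038160, chr10:44268358-44364291, plus strand), which receives Atg12, was the most abundant conjugation gene in both stages. It had 752, 1415 and 852 CPM in MSC-IVM-MII-12m oocytes, 665, 1603 and 696 CPM in IVM-MII-12m oocytes and 380.2, 479 and 256 CPM in GV-12m oocytes. At 6 weeks Atg5 had 708, 953 and 943 CPM in MSC-IVM-MII-6wk oocytes, 1012, 1257 and 1018 CPM in IVM-MII-6wk oocytes and 387, 409.5 and 282 CPM in GV-6wk oocytes. Each of the 12 metaphase II oocytes was above the highest GV oocyte, at 479 CPM, and IVM-MII means were 2.66-fold and 3.05-fold the GV means at 12 months and 6 weeks. Without IVM-MII-12m oocyte 2, which had 1603 CPM, the 12-month difference was 0.92 in place of 1.33.

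Atg3 (ENSMUSG00000022663, chr16:45158785-45188538, plus strand), the E2-like enzyme that hands Atg8 proteins to the lipid, had 78.8, 116 and 152 CPM in MSC-IVM-MII-12m oocytes, 179.6, 152 and 181 CPM in IVM-MII-12m oocytes and 35.3, 96.2 and 48.5 CPM in GV-12m oocytes. At 6 weeks it had 179, 94.4 and 205 CPM in MSC-IVM-MII-6wk oocytes, 159.8, 83.1 and 146 CPM in IVM-MII-6wk oocytes and 49.9, 51.7 and 33.6 CPM in GV-6wk oocytes. Atg3 rose 2.85-fold in IVM-MII-12m and 2.88-fold in IVM-MII-6wk oocytes. Atg10, the E2-like enzyme for Atg12, differed by 0.41 and 0.91 with overlap.

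Atg7, the E1-like enzyme that activates both Atg12 and the Atg8 proteins, went the other way at 12 months, with 8.45, 2.598 and 5.08 CPM in IVM-MII-12m oocytes and 16.9, 11.8 and 11.2 CPM in GV-12m oocytes (a fall of 2.47-fold, with a difference of -1.25 that was -0.89 without IVM-MII-12m oocyte 2). Atg16l1, which places the Atg12-Atg5 conjugate on the membrane, had 17.6, 5.80 and 15.9 CPM in IVM-MII-12m oocytes and 18.9, 33.6 and 43.2 CPM in GV-12m oocytes and fell 2.44-fold, with a TPM difference of -0.77 and a difference of -0.82 without IVM-MII-12m oocyte 2. Its relative Atg16l2 was at 0 in the 3 IVM-MII-6wk oocytes and at 4.83, 2.18 and 0.354 CPM in GV-6wk oocytes. Atg12 showed the smallest difference at 12 months (-0.30).

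The Atg4 proteases trim Atg8 proteins before conjugation and release them again. Atg4b (ENSMUSG00000026280, chr1:93751500-93790610, plus strand), the most active of them on LC3 in mammals, showed the largest fall in IVM-MII-12m oocytes. It had 0, 19.9 and 19.7 CPM in MSC-IVM-MII-12m oocytes, 14.2, 0.200 and 7.83 CPM in IVM-MII-12m oocytes and 147, 188 and 85.4 CPM in GV-12m oocytes. At 6 weeks it had 11.8, 18.004 and 6.89 CPM in MSC-IVM-MII-6wk oocytes, 6.29, 30.7 and 7.69 CPM in IVM-MII-6wk oocytes and 181, 169 and 96.2 CPM in GV-6wk oocytes. Every metaphase II oocyte lay below every GV oocyte, with IVM-MII means 18.8-fold and 9.99-fold lower. Atg4a did neither, with differences of 1.57 and -0.39 and overlapping oocytes, and was the higher of the pair in metaphase II oocytes, with means of 9.07 TPM for Atg4a and 6.17 TPM for Atg4b.

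Among the Atg8 proteins, the LC3 paralogs Map1lc3a and Map1lc3b parted. Map1lc3a (ENSMUSG00000027602, chr2:155276297-155278073, plus strand) had 18.7, 3.05 and 6.71 CPM in MSC-IVM-MII-12m oocytes, 2.41, 6.99 and 22.9 CPM in IVM-MII-12m oocytes and 221, 201 and 83.7 CPM in GV-12m oocytes. At 6 weeks Map1lc3a had 34.3, 27.3 and 3.10 CPM in MSC-IVM-MII-6wk oocytes, 1.80, 33.2 and 18.2 CPM in IVM-MII-6wk oocytes and 199, 123 and 192 CPM in GV-6wk oocytes. No metaphase II oocyte reached the lowest GV oocyte, at 83.7 CPM, and IVM-MII means were 15.7-fold and 9.66-fold lower. Map1lc3b (ENSMUSG00000031812, chr8:121590361-121598760, plus strand) had 91.2, 203 and 135 CPM in MSC-IVM-MII-12m oocytes, 188, 234 and 80.7 CPM in IVM-MII-12m oocytes and 252, 204 and 102.7 CPM in GV-12m oocytes. Its oocytes overlapped, with differences of -0.19 at 12 months and -0.62 at 6 weeks. In TPM, Map1lc3a averaged 21.1 in metaphase II and 216 in GV oocytes, and Map1lc3b 66.7 in metaphase II and 116 in GV oocytes, so the more abundant LC3 transcript differed between the stages.

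The GABARAP branch of the family acts later in autophagosome closure and fusion. Gabarap had 3.14, 1.60 and 5.08 CPM in IVM-MII-12m oocytes and 23.6, 10.9 and 27.8 CPM in GV-12m oocytes, a fall of 6.34-fold, and its difference of -2.24 at 6 weeks came with overlap at IVM-MII-6wk oocyte 2. Gabarapl2 had 52.5, 51.6 and 44.7 CPM in IVM-MII-12m oocytes and 185, 118 and 55.5 CPM in GV-12m oocytes. Its difference of -1.09 was -0.74 within title prefixes and -0.70 without GV-12m oocyte 1.

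**Figure D4:**
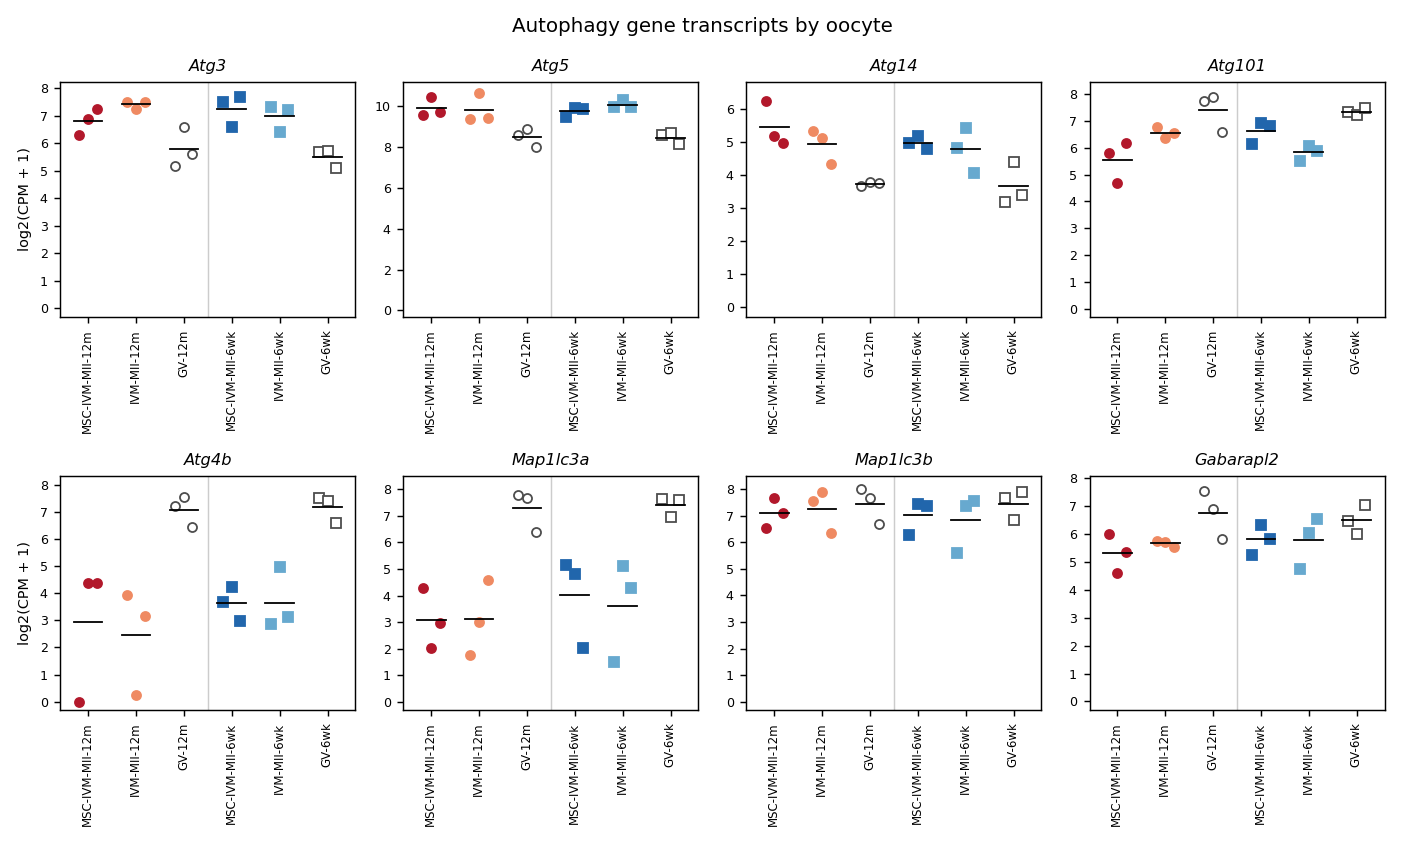
Levels of 8 autophagy genes in every oocyte, as log2(CPM + 1), with MSC-IVM-MII, IVM-MII and GV oocytes from left to right at 12 months (circles) and then 6 weeks (squares), and a black bar at each mean. Atg3, Atg5 and Atg14 are mostly higher in metaphase II oocytes, Atg4b and Map1lc3a are lower in all 12, and Map1lc3b overlaps between the stages.

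Lamp1 and Lamp2 are the heavily glycosylated proteins that line the lysosome's membrane. Lamp1 (ENSMUSG00000031447, chr8:13159161-13175338, plus strand) had 0, 8.17 and 36.3 CPM in MSC-IVM-MII-12m oocytes, 10.5, 41.2 and 9.32 CPM in IVM-MII-12m oocytes and 46.7, 141 and 128 CPM in GV-12m oocytes. It fell 5.17-fold in IVM-MII-12m oocytes, though the groups overlapped on the TPM scale, and at 6 weeks its difference of -1.46 came with overlap. Lamp2 had 1.57, 0 and 0 CPM in IVM-MII-6wk oocytes and 5.63, 3.40 and 2.12 CPM in GV-6wk oocytes, a fall of 7.09-fold at low level.

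Of the 6 measured cathepsins, 4 fell in IVM-MII-12m against GV-12m oocytes and 2 in IVM-MII-6wk against GV-6wk oocytes, and none rose. Ctsl (ENSMUSG00000021477, chr13:64359337-64370890, minus strand), a cysteine endopeptidase, had 0, 0 and 8.69 CPM in MSC-IVM-MII-12m oocytes, 1.45, 0.3997 and 24.6 CPM in IVM-MII-12m oocytes and 66.7, 40.0 and 120.1 CPM in GV-12m oocytes. It fell 8.59-fold in IVM-MII-12m oocytes, while at 6 weeks IVM-MII-6wk oocyte 2, at 71.6 CPM, lay above all 3 GV-6wk oocytes. Ctsh, an aminopeptidase of the same fold, was the most abundant cathepsin in both stages, with means of 131 TPM in metaphase II and 319 TPM in GV oocytes, and fell 3.68-fold at 12 months. Ctsb, a cysteine protease, had 0, 27.9 and 2.56 CPM in IVM-MII-6wk oocytes and 65.1, 49.0 and 61.6 CPM in GV-6wk oocytes, a fall of 5.77-fold, while 12.8% of its exon bases lie opposite exons of Fdft1, which averaged 26.4 TPM in metaphase II and 423 TPM in GV oocytes.

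Ctsz, an exopeptidase, was at 0 in all 3 IVM-MII-12m oocytes and at 4.67, 0.878 and 19.0 CPM in GV-12m oocytes, at least 15.4-fold lower. The serine carboxypeptidase Ctsa was likewise at 0 in IVM-MII-12m oocytes and at 5.55, 4.76 and 10.7 CPM in GV-12m oocytes, at least 13.2-fold lower. Ctsd, the main aspartic protease of the lysosome, had the smallest cathepsin difference at 12 months (-0.41) and fell at 6 weeks by 2.12-fold, with a difference of -1.20 that was -0.93 within title prefixes, -0.55 without IVM-MII-6wk oocyte 2 and -0.88 without GV-6wk oocyte 2. GV-12m oocyte 3 had the highest Ctsl (120.1 CPM) and Ctsz (19.0 CPM) of all 18 oocytes, together with the most granulosa marker RNA, and the part of that RNA in these levels was not tested. Without that oocyte 25 of the 50 genes fell and 6 rose in IVM-MII-12m against GV-12m oocytes, while 31.2% of all genes fell and 13.1% rose.

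Oocytes matured with MSC were set against the same GV oocytes as those without, so the comparisons share the GV libraries. Between MSC-IVM-MII-12m and GV-12m oocytes 23 of 50 genes fell and 3 rose, beside 28.0% and 9.99% of all genes. Between MSC-IVM-MII-6wk and GV-6wk oocytes 15 fell and 6 rose, beside 27.3% and 12.3%. The medians of the 50 were -1.43 at 12 months and -0.79 at 6 weeks, beside -0.60 and -0.29 for all genes. All 15 that fell at 6 weeks are among the 23 at 12 months, beside 20.4% of all genes that fell at both ages, and Atg5 and Atg14 rose at both, beside 5.62%.

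Lamtor4 differed by -5.33 between MSC-IVM-MII-12m and GV-12m oocytes, a 65.9-fold difference in mean CPM and the largest of any member in any comparison here. Ctsl followed with -5.03. Between MSC-IVM-MII-6wk and GV-6wk oocytes the largest differences were -3.95 for Lamtor1 and -3.90 for Ctsl. Among the genes that rose were Atp6v1a at 12 months (2.02) and Atg3 (1.75), Atp6v1c2 (1.62) and Lamtor2 (1.34) at 6 weeks.

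Whether MSC co-culture changed these transcripts was read from MSC-IVM-MII against IVM-MII oocytes. At 12 months 5 genes fell and 1 rose, beside 2.89% and 1.99% of all genes, and at 6 weeks none fell and 1 rose, beside 0.881% and 3.05%. The median of the 50 was -0.32 at 12 months and 0.19 at 6 weeks, beside -0.09 and 0.20 for all genes. Differences under the size limit are not counted in either.

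Atp6v1a (ENSMUSG00000052459, chr16:44085402-44139705, minus strand), the catalytic subunit of the proton pump, was the gene that rose with co-culture at 12 months. It had 38.3, 87.7 and 41.7 CPM in MSC-IVM-MII-12m oocytes, 2.78, 12.0 and 19.5 CPM in IVM-MII-12m oocytes and 6.67, 7.90 and 31.6 CPM in GV-12m oocytes. Each MSC-IVM-MII-12m oocyte was above each oocyte of both other 12-month groups, and its mean was 4.89-fold that of IVM-MII-12m oocytes (difference 2.40). On the TPM scale its MSC-IVM-MII-12m and GV-12m oocytes overlapped. At 6 weeks the values were 34.8, 12.7 and 26.9 CPM in MSC-IVM-MII-6wk oocytes, 52.6, 0 and 32.2 CPM in IVM-MII-6wk oocytes and 6.17, 17.2 and 0 CPM in GV-6wk oocytes, and the IVM-MII-6wk oocytes lay on both sides of the co-cultured ones (difference 0.98). The other subunit of the catalytic head, Atp6v1b2, differed by 0.42 at 12 months with overlap.

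The genes that fell with co-culture at 12 months were Lamtor4, Atg16l1, Lamtor3, Lamtor1 and Atg101. Lamtor4 fell 5.35-fold, to 0 to 3.36 CPM in MSC-IVM-MII-12m oocytes against 6.52 to 10.8 CPM in IVM-MII-12m oocytes, and its 0 was in the shallowest library, where 3 counts are 1.34 CPM. Atg16l1 had 2.23, 1.80 and 3.75 CPM in MSC-IVM-MII-12m oocytes, 17.6, 5.80 and 15.9 CPM in IVM-MII-12m oocytes and 18.9, 33.6 and 43.2 CPM in GV-12m oocytes. It fell 5.05-fold (difference -1.88), and its 6-week metaphase II values ran from 0 to 92.7 CPM in MSC-IVM-MII-6wk and from 0.569 to 86.1 CPM in IVM-MII-6wk oocytes.

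Lamtor3 had 154, 40.9 and 195 CPM in MSC-IVM-MII-12m oocytes and 198, 202 and 428 CPM in IVM-MII-12m oocytes, with a fall of -1.26 on the log2 scale that rested on a gap between 195 and 198 CPM. Lamtor1 had 24.0, 5.82 and 34.2 CPM in MSC-IVM-MII-12m oocytes and 45.6, 41.4 and 40.0 CPM in IVM-MII-12m oocytes, a difference of -1.25. Atg101 differed by -1.02. Without MSC-IVM-MII-12m oocyte 2 the differences of Lamtor3, Lamtor1 and Atg101 were -0.57, -0.54 and -0.57, all under the size limit, and none of the 3 genes kept its call on the TPM scale. At 6 weeks Lamtor4, Lamtor1 and Lamtor3 differed by 0.94, 1.19 and -0.19 with overlapping oocytes.

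At 6 weeks Atp6v1c2, an isoform of the subunit that holds the 2 sectors together, rose with co-culture. It had 7.16, 4.67 and 2.76 CPM in MSC-IVM-MII-6wk oocytes, 0.899, 0 and 0 CPM in IVM-MII-6wk oocytes and 0, 0.728 and 2.48 CPM in GV-6wk oocytes. The mean was 16.2-fold that of IVM-MII-6wk oocytes, where 2 of 3 oocytes had no count, and with a pseudocount of 5 CPM the difference was 0.88 in place of 2.17. At 12 months its oocytes overlapped (difference 0.61). Exons of Pdia6 on the other strand cover 2.30% of the exon bases of Atp6v1c2, and strand use in counting is not stated. Pdia6 averaged 86.1 TPM in metaphase II and 202 TPM in GV oocytes, and its part in these low levels was not tested.

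Age was read within each kind of oocyte, where the title prefixes of the 2 ages differ, so that age and whatever the prefixes mark cannot be told apart. GV-12m against GV-6wk oocytes gave 1 fall and 2 rises among the 50, beside 1.84% and 2.47% of all genes. IVM-MII-12m against IVM-MII-6wk oocytes gave 3 rises and no fall, beside 5.08% and 1.74%. MSC-IVM-MII-12m against MSC-IVM-MII-6wk oocytes gave 2 falls and 1 rise, beside 3.81% and 1.89%. The medians of the 50 were 0.08, 0.14 and -0.34, beside 0.12, 0.16 and -0.12 for all genes.

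Atp6v0e2, the second isoform of the small e subunit, was higher at 12 months in GV and IVM-MII oocytes. It had 52.0, 52.5 and 47.9 CPM in GV-12m oocytes and 31.1, 26.2 and 18.4 CPM in GV-6wk oocytes (difference 1.01). In metaphase II without MSC it had 42.2, 127 and 57.4 CPM in IVM-MII-12m oocytes and 7.64, 17.0 and 14.0 CPM in IVM-MII-6wk oocytes, a 5.87-fold rise (difference 2.37). With MSC the difference was 1.26 and the oocytes overlapped. The GV difference lies close to the size limit, and it was 0.99 without GV-12m oocyte 1 or oocyte 2 and 0.81 without GV-6wk oocyte 3.

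Atg4a had 0.444, 2.76 and 4.68 CPM in GV-12m oocytes and 12.3, 14.1 and 6.37 CPM in GV-6wk oocytes, a 4.16-fold fall with age in GV oocytes (difference -1.86) whose groups overlapped on the TPM scale. Atg7 had 16.9, 11.8 and 11.2 CPM in GV-12m oocytes and 8.58, 6.79 and 2.12 CPM in GV-6wk oocytes, a 2.28-fold rise (difference 1.19, and 0.70 without GV-6wk oocyte 3). Lamtor1 rose with age in IVM-MII oocytes, with 45.6, 41.4 and 40.0 CPM in IVM-MII-12m oocytes and 3.15, 5.27 and 23.1 CPM in IVM-MII-6wk oocytes (difference 2.34), and GV oocytes differed by -0.04. Atp6v1c2 rose by 1.20 in the same comparison at levels under 2.30 CPM, where the TPM difference was 0.76.

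In co-cultured oocytes Atp6v0e and Lamtor4 fell with age and Atp6v1a rose. Atp6v0e had 16.02, 13.7 and 52.7 CPM in MSC-IVM-MII-12m oocytes and 77.1, 104 and 92.3 CPM in MSC-IVM-MII-6wk oocytes, a 3.32-fold fall. Lamtor4 fell 4.12-fold at low levels, and its difference of -1.70 was -0.78 with a pseudocount of 5 CPM. Atp6v1a rose 2.26-fold. Its difference of 1.15 was 0.49 on the TPM scale, 0.78 without MSC-IVM-MII-12m oocyte 2 and 0.75 without MSC-IVM-MII-6wk oocyte 2. The 2 isoforms Atp6v0e and Atp6v0e2 thus had differences of -1.94 and 1.26 in the same oocytes.

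**Figure D5:**
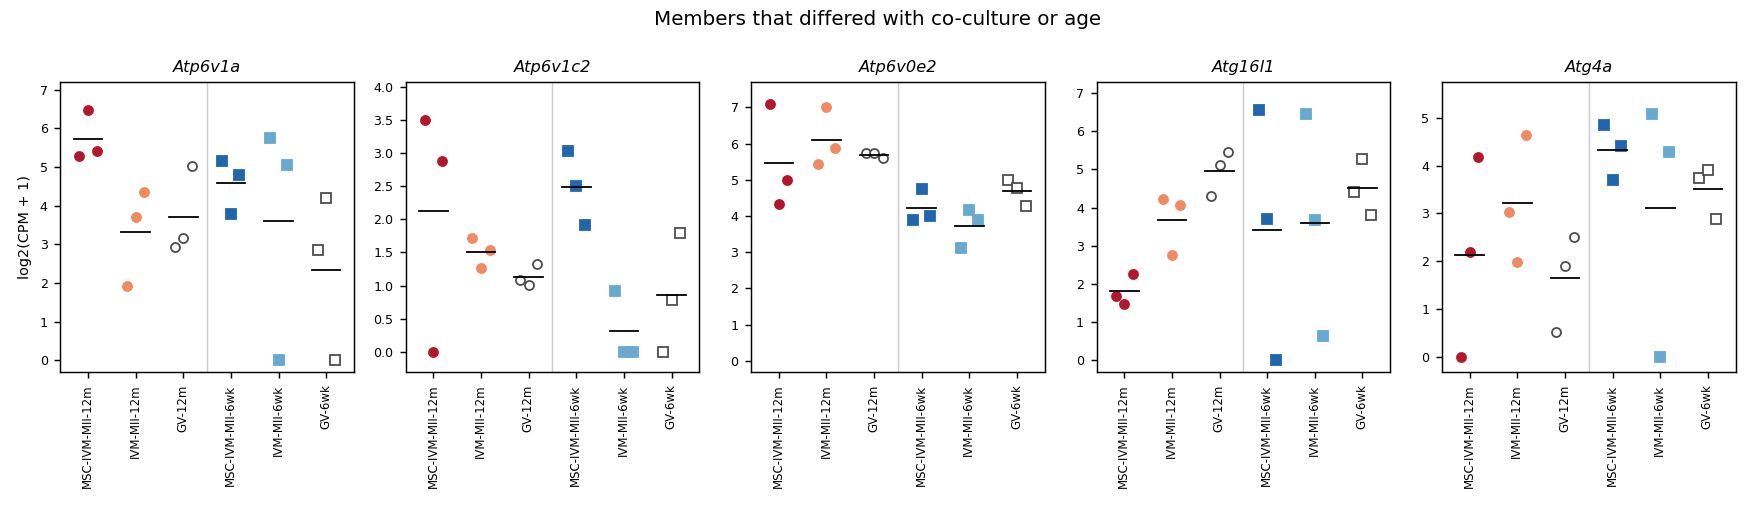
Levels of 5 genes in every oocyte, as log2(CPM + 1), with MSC-IVM-MII, IVM-MII and GV oocytes from left to right at 12 months (circles) and then 6 weeks (squares), and a black bar at each mean. Atp6v1a is highest in the 3 MSC-IVM-MII-12m oocytes among the 12-month groups, Atg16l1 is lowest there, Atp6v1c2 is higher in MSC-IVM-MII-6wk than in IVM-MII-6wk oocytes, Atp6v0e2 is mostly higher at 12 months, and Atg4a is lower in GV-12m than in GV-6wk oocytes.

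Other genes of the same pathways were counted in 10 lists that hold none of the 71. Of 30 measured lysosomal hydrolases and cofactors, 13 fell and 2 rose in IVM-MII-12m against GV-12m oocytes, and 10 fell and 1 rose at 6 weeks, beside the background shares given above. Idua, which degrades glycosaminoglycans, had the largest fall at both ages, with 1.24 ± 2.04 CPM in IVM-MII-12m oocytes and 55.2 ± 25.9 CPM in GV-12m oocytes, and 0 ± 0 CPM in IVM-MII-6wk oocytes and 81.1 ± 30.8 CPM in GV-6wk oocytes. All 3 measured cathepsin inhibitors fell at both ages, and Cst3 (cystatin C) had 0.603 ± 1.05 CPM in IVM-MII-12m oocytes and 191 ± 147 CPM in GV-12m oocytes and 0.225 ± 0.389 CPM in IVM-MII-6wk oocytes and 156 ± 57.1 CPM in GV-6wk oocytes. The differences of Cst3 (-6.80 and -6.97) were larger than those of any measured cathepsin. On this scale a fall is limited by the level in GV oocytes. Ctsa and Ctsz were at 0 in IVM-MII-12m oocytes, so the sizes do not show which transcript fell further.

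Of 14 genes of autophagosome and lysosome fusion, 3 fell at 12 months and 6 at 6 weeks, and none rose. Vamp8, a SNARE of that fusion, had 21.8 ± 4.69 CPM in IVM-MII-12m oocytes and 287 ± 161 CPM in GV-12m oocytes, and 32.3 ± 25.9 CPM in IVM-MII-6wk oocytes and 222 ± 69.8 CPM in GV-6wk oocytes. Of 10 genes of lysosome positioning, 4 fell at 12 months and 3 at 6 weeks. The BORC subunit Bloc1s1 had 0 ± 0 CPM in IVM-MII-12m oocytes and 99.5 ± 62.4 CPM in GV-12m oocytes, and 1.76 ± 3.04 CPM in IVM-MII-6wk oocytes and 83.7 ± 47.6 CPM in GV-6wk oocytes. Among 24 lysosomal membrane and sorting genes 6 fell and 2 rose at 12 months and 8 fell and 2 rose at 6 weeks, with Sort1 (0 against 9.68 CPM, IVM-MII-12m and GV-12m) and Slc15a4 (0.449 against 17.9 CPM, IVM-MII-6wk and GV-6wk) the largest.

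Of 22 Rag, GATOR and mTORC1 genes, 2 fell and 3 rose at 12 months and 5 fell and 2 rose at 6 weeks. The 2 largest differences by size at both ages were falls, of Tbc1d7 of the TSC complex (-4.11 and -4.57) and Kptn of KICSTOR (-3.73 and -3.96). The genes that rose, by smaller differences, were Rraga, Seh1l and Deptor at 12 months and Seh1l and Rheb at 6 weeks. Of 7 MiT-TFE factors and regulators, 1 fell and 1 rose at 12 months and 2 rose at 6 weeks. Subunits of calcineurin went both ways. The catalytic subunit Ppp3cb fell at 12 months, with 0 ± 0 CPM in IVM-MII-12m and 9.59 ± 9.41 CPM in GV-12m oocytes (-2.93). Its 6-week difference was -0.98, under the size limit. Ppp3ca, another catalytic subunit, rose at 6 weeks (1.37) and differed by 0.21 at 12 months. Ppp3r1, the regulatory subunit of calcineurin, which activates TFEB, had 38.2 ± 9.44 CPM in IVM-MII-12m oocytes and 12.9 ± 4.67 CPM in GV-12m oocytes, and 27.7 ± 8.16 CPM in IVM-MII-6wk oocytes and 6.65 ± 4.80 CPM in GV-6wk oocytes. Tfeb was under the count filter, and Tfe3, named after its values were seen, differed by -0.64 and 0.46 with overlap. Of 11 V-ATPase accessory and assembly genes, none passed at 12 months and 4 fell at 6 weeks, led by Atp6ap1 (-3.04) and Rogdi (-2.59).

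Of 17 further genes of initiation and the PI3-kinase complex, 3 fell at 12 months, and 2 fell and 1 rose at 6 weeks. Wipi2, which reads the kinase's lipid product and recruits Atg16l1, fell at both ages (-2.83 and -4.18). Of 19 autophagy receptors, 3 fell and 4 rose at 12 months and 5 fell and 3 rose at 6 weeks. Tex264, an ER-phagy receptor, fell at both ages (-2.92 and -3.19), as did Optn and Phb2, while Tax1bp1 and Sec62 rose at both.

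With co-culture, at most 1 gene of each list passed in each direction at 12 months, among them Stx17, the syntaxin of autophagosomes, with 62.7 ± 9.97 CPM in MSC-IVM-MII-12m oocytes and 28.3 ± 13.2 CPM in IVM-MII-12m oocytes, and the hydrolase Tpp1, with 5.69 ± 5.13 CPM in MSC-IVM-MII-12m oocytes and 20.4 ± 10.3 CPM in IVM-MII-12m oocytes. Of all genes, 2.89% fell and 1.99% rose with co-culture at 12 months. Tpp1 fell at 6 weeks also (-1.42). Arl8a and Arl8b, which move lysosomes outwards, rose at 6 weeks (2.02 and 1.07), where 0.881% of all genes fell and 3.05% rose. Between GV-12m and GV-6wk oocytes 1.84% of all genes fell and 2.47% rose. The only genes of the 10 lists that passed there were Ulk1, Mlst8, Galns and Atp6ap1. Ulk1, the kinase of autophagy initiation, had 8.40 ± 4.33 CPM in GV-12m oocytes and 1.40 ± 1.77 CPM in GV-6wk oocytes. Mlst8 differed by 1.14 and Atp6ap1 by -1.98. Galns, a lysosomal sulfatase, had mean levels of 4.54 against 10.5 CPM.

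Of the 21 genes under the count filter, Atp6v1g3, Ctsg, Ctsm, Ctsq, Ctsr and Ctsw had no count in any of the 18 oocytes. Atg4c, Atg4d, Atg9a, Gabarapl1, Atp6v0d2, Atp6v1b1, Atp6v1e2, Atp6v1fnb, Ctsc, Ctse, Ctsf, Ctsj, Ctsk, Ctso and Ctss had counts in 1 to 7 oocytes. Gabarapl1 (121 counts in all), Ctsc (97) and Atg9a (83) had the most. GV-12m oocyte 3 was again the highest for Gabarapl1 (16.9 CPM), Ctsc (12.1 CPM) and Ctso (7.55 CPM). With the filter lifted, 2 of these genes met the size and overlap limits. Gabarapl1, of the GABARAP branch, was at 0 in all MSC-IVM-MII-12m and IVM-MII-12m oocytes, against 0.222, 0.627 and 16.9 CPM in GV-12m oocytes, of which 112 of 118 counts were in oocyte 3. Atp6v1e2, an isoform of a peripheral stalk subunit, was at 0 in the same metaphase II oocytes, against 1.33, 1.76 and 1.81 CPM in GV-12m oocytes, and had 1 count over the 3 GV-6wk oocytes. Against a floor of 3 counts per library, the IVM-MII-12m mean was at least 11.1-fold lower than the GV-12m mean for Gabarapl1 and at least 3.07-fold lower for Atp6v1e2. The other genes under the filter did not meet both limits in any comparison.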

How the data were processed

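Gene tables of 18 single-oocyte libraries were used. Reads were processed with FastQC 0.11.8, Trim Galore 0.4.5, TopHat2 2.1.1 and Cufflinks on mm10 (GRCm38.p5), per the submitters' processing notes; the tool that made the expected counts, and its use of strand, were not given in the sources used here. The deposited tables hold expected counts, TPM and FPKM per gene, per the file headers. Expected counts split reads shared by several genes. The deposited TPM values served for levels between genes and as an alternative scale, and FPKM as deposited by the authors was not used.

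Symbols and coordinates came from GENCODE M21 (GRCm38), which matched 46574 of 47069 gene identifiers; genes without a symbol took 0.0353% of counts. Expected counts were rounded, filterByExpr by group left 12037 genes, and TMM factors came from edgeR 4.0.16 under R 4.3.3. CPM are counts scaled to the TMM-adjusted library total. Differences are means of log2(CPM + 1), so those of weakly expressed genes are understated, and a gene was called where the difference was at least 1 and the oocytes did not overlap. Folds are ratios of mean CPM, with a floor of 3 counts per library where a group was at 0. Intervals and floors cover counting error only, since the reads carry no molecular identifiers. Other steps used pandas 2.3.3, NumPy 2.4.6 and SciPy 1.17.1 in Python 3.11.15, and figures Matplotlib 3.10.9. The computation was tested on simulated counts.

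Groups followed the labels, and 9 comparisons were made without a test, because cells of 1 group are not replicates. Alternatives were DESeq2 1.42.0 size factors, no filter, a pseudocount of 5 CPM, TPM, totals without the 37 mitochondrial genes, single oocytes left out, values within title prefixes, and no Y01 metaphase II oocytes. Pairs of libraries of a group differed by a chi-square of at least 24.9 per gene, so none was a duplicate. Named with values were the called genes with the largest differences (up to 12 in each direction for IVM-MII against GV, up to 6 otherwise), in each role the most abundant gene at each stage and the 1 with the smallest difference, and up to 2 called genes per pathway list and comparison, of which the text gives a part. The members, roles and lists were chosen with earlier results of these data known.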

Additional observations from a re-analysis of the deposited data

Results flagged for a closer look

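Atg101, a subunit of the ULK1 complex, is listed because its 2 co-culture differences ran in opposite directions with no overlap between oocytes at either age. The difference between MSC-IVM-MII and IVM-MII oocytes was -1.02 at 12 months and 0.80 at 6 weeks on the log2(CPM + 1) scale, a gap of -1.82. At 12 months Atg101 had 54.7, 24.5 and 72.3 CPM in MSC-IVM-MII-12m oocytes and 109, 81.3 and 94.2 CPM in IVM-MII-12m oocytes, and at 6 weeks 69.5, 122 and 113 CPM in MSC-IVM-MII-6wk oocytes and 45.2, 66.6 and 58.4 CPM in IVM-MII-6wk oocytes. The difference between ages was not tested. Without MSC-IVM-MII-12m oocyte 2 the 12-month value was -0.57, and within title prefixes it was -0.96.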

How the results depend on the processing

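No paired analysis was possible because the labels give no replicate numbers that match single oocytes across groups. Title prefixes are shared across groups, with unequal numbers of oocytes, and differences taken within them are given as 1 of the settings. Of the medians and counts of called genes, 9 values were marked as moved under settings other than leaving out a single oocyte. A count without that mark can still hold other genes than the reported ones. In MSC-IVM-MII-12m against IVM-MII-12m oocytes, 3 of the 6 calls stayed in TPM and 4 of the 6 with DESeq2 size factors. In MSC-IVM-MII-12m against GV-12m oocytes, 20 of the 26 calls stayed in TPM. The median of the 50 genes in IVM-MII-12m against GV-12m oocytes was -1.38 with DESeq2 size factors, -0.83 with no filter, -0.67 with a pseudocount of 5 CPM and -0.77 in TPM, in place of -1.17. DESeq2 moved the median of all genes in that comparison to -0.68, in place of -0.52, and TPM moved it to -0.35. With a pseudocount of 5 CPM 0 genes were called in MSC-IVM-MII-6wk against IVM-MII-6wk oocytes, beside 1.41% of all genes. That setting left 1 called gene in GV-12m against GV-6wk oocytes, beside 1.70% of all genes. Without the Y01 metaphase II oocytes, 4 genes were called in MSC-IVM-MII-6wk against IVM-MII-6wk, 7 in IVM-MII-12m against IVM-MII-6wk and 6 in MSC-IVM-MII-12m against MSC-IVM-MII-6wk oocytes, in place of 1, 3 and 3, and 19.8, 16.4 and 12.0% of all genes were called there. In TPM, GV-12m against GV-6wk oocytes gave no fall and 2 rises, in place of 1 and 2. The cause of these shifts was not tested.

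Leaving out 1 oocyte at a time gave medians of -1.23 to -1.01 (28 genes called; 27 to 31) for IVM-MII-12m against GV-12m and -1.19 to -0.86 (17 called; 18 to 23) for IVM-MII-6wk against GV-6wk. The ranges were -1.64 to -1.15 (27 to 30 called) for MSC-IVM-MII-12m against GV-12m and -1.15 to -0.75 (21 to 30) for MSC-IVM-MII-6wk against GV-6wk. For MSC-IVM-MII against IVM-MII they were -0.52 to -0.22 (6 to 12) at 12 months and 0.02 to 0.29 (1 to 5) at 6 weeks. For 12 months against 6 weeks they were -0.16 to 0.31 (3 to 8) in GV, -0.04 to 0.28 (3 to 7) in IVM-MII and -0.58 to -0.20 (3 to 9) in MSC-IVM-MII oocytes. With fewer oocytes, overlap is rarer by construction. Depth limits genes of a few CPM, since 3 counts are 0.362 to 1.34 CPM.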

Other observations

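Among the measured genes of this group, those that fell had the shorter median transcript length. In IVM-MII-12m against GV-12m oocytes the median length was 1276 bases for the 22 that fell, 2029 bases for the 6 that rose and 2017 bases for the other 22. In IVM-MII-6wk against GV-6wk oocytes it was 1127 bases for the 14 that fell, 2057 bases for the 3 that rose and 1865 bases for the other 33. Lengths are those in the deposited tables. They were not set beside the lengths of all genes that fell or rose, and their part in the differences was not tested.

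Some paralog pairs, chosen with their values known, differed in IVM-MII against GV oocytes at both ages. Atp6v0e fell and Atp6v0e2 did not, Map1lc3a fell and Map1lc3b did not, and Atg4b fell and Atg4a did not. At 6 weeks Atp6v0e2 was also lower, without overlap between oocytes, and just under the size limit. Other pairs moved together: Gabarap and Gabarapl2 both fell at 12 months, as did Atp6v1g1 and Atp6v1g2. The difference between paralogs was not tested.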
